A study of Mus musculus with 6 samples.

Results

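Transcripts of 47 genes of the PI3K-mTOR and RAS-MAPK signaling pathways were examined in lung tumors of mice with and without interstitial pneumonia (IP). The genes were chosen by symbol from a list of pathway members, and all 47 were found among the 31130 genes of the count tables. They comprise 40 pathway components, of which 26 are protein or lipid kinases and 14 are regulatory subunits, small GTPases, phospholipases and other proteins, and 7 feedback genes of the Dusp and Spry families. The comparison asked whether the components and the feedback genes differed between the 3 tumors of the IP+LC model and the 3 tumors of the LC model.

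Growth factor receptors with tyrosine kinase activity, such as EGFR, ERBB2 and MET, feed both pathways. Class I PI3K, made of a catalytic and a regulatory subunit, produces the lipid signal that brings AKT to the membrane, and AKT releases mTOR complex 1 from the TSC complex through the GTPase RHEB. RAS proteins activate RAF kinases, which activate MAP2 kinases and through them the MAP kinases of the ERK type. ERK activity induces DUSP phosphatases, which remove the activating phosphates from MAP kinases, and Sprouty proteins, which dampen signaling between the receptor and RAF. These are controls on protein activity, and transcript counts do not measure phosphorylation or enzyme activity.

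Tumors were taken on day 21 from female C57BL/6 mice that were 6 to 8 weeks old and are labelled WT. In both groups the left lung had been injected on day 14 with LLC (Lewis lung carcinoma) cells, which derive from a mouse lung tumor and here express enhanced green fluorescent protein. The IP+LC mice had received bleomycin, which damages lung tissue and leaves fibrosis, at 2.0 mg/kg by oropharyngeal aspiration on day 0, and the LC mice had the cancer cells without it. The labels give the cell type as lung cancer cells, but the RNA came from whole tumor tissue, and markers of normal lung were abundant in all 6 libraries. The sources do not say whether each tumor came from a different mouse, so the p-values measure the spread between these tumor samples. All values are from 1 injected cell line.

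Bulk RNA barcoding and sequencing tags the 3′ end of each RNA molecule with a unique molecular identifier (UMI), so that copies made by PCR are counted once. The libraries held 592733 UMIs in LC replicate 1 and from 1336919 to 1631066 in the other 5, and between 1421 and 4834 UMIs of each library fell on the 47 genes. Levels are given as counts per 1000000 UMIs after TMM scaling (CPM), and 3 UMIs, taken as the floor of detection for each library, equal 5.17 CPM in LC replicate 1 and from 1.75 to 2.54 CPM elsewhere. LC replicate 1 stood apart from its group. Its correlation with the other LC tumors across genes, which are not independent replicates, was 0.777 and 0.820. Between LC replicates 2 and 3 the correlation was 0.957. Between LC replicate 1 and IP+LC replicates 1, 2 and 3 it was 0.793, 0.773 and 0.801. The calls are therefore also given without LC replicate 1.

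The promoters of the 4 feedback genes that passed the test are printed first, because their transcripts changed in opposite directions although the genes belong to the same 2 families. The sequences are RefSeq windows of build GRCm38.p6, written 5′ to 3′ on the strand of the gene and ending just before the RefSeq start or, where it comes earlier, before the first exon base that GENCODE M21 annotates. Capitals mark a full cyclic AMP response element (CRE) in Dusp1 and a pair of CArG boxes, the motif of serum response factor, in Dusp5. The Dusp1 window is chr17:26508520-26508722 on the minus strand, and that of Dusp5 is chr19:53528895-53529108 on the plus strand. The Dusp1 window lies inside the gene as GENCODE M21 annotates it, which reaches upstream to 26562128. The Dusp6 window is chr10:99262981-99263230 and the Spry1 window is chr3:37639697-37639946, both on the plus strand.
Dusp1: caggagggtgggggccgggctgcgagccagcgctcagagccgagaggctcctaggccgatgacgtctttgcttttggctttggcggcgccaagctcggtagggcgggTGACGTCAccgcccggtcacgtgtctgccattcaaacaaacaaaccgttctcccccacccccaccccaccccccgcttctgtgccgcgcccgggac
Dusp5: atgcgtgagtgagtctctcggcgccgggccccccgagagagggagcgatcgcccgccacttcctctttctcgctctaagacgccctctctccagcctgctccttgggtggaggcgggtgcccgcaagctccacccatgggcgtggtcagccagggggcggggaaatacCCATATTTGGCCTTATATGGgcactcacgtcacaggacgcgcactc
Dusp6: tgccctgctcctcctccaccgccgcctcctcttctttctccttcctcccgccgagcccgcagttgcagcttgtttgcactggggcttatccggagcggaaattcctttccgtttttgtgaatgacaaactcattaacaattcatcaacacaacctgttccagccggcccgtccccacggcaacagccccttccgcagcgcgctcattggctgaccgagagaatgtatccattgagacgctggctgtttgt
Spry1: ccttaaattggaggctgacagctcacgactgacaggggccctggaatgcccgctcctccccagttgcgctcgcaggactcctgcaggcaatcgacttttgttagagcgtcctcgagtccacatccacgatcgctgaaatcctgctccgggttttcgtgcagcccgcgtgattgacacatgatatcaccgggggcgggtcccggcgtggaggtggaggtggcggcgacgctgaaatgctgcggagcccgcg

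The printed windows of Dusp1 and Dusp5 thus end 47 and 36 bases short of the RefSeq start. Counted from the RefSeq start, the CRE of Dusp1 lies from -143 to -136, and the CArG boxes of Dusp5 lie from -82 to -73 (CCATATTTGG) and from -72 to -63 (CCTTATATGG). In all, 14 motifs were searched on both strands of the 250 bases before each RefSeq start, the bases not printed included, and the 2 shown in capitals were chosen after the matches had been seen. Windows with the CRE (TGACGTCA) made up 1.55% of the 32851 windows of the RefSeq table, and those with a CArG box made up 1.47%. Among the 43 of 47 members with a window, the CRE was found in Braf and Dusp1 and the CArG box in Dusp5 and Mknk2. Mapk3, Rps6kb2, Dusp4 and Spry4 had no window in the table. The other motifs, with the share of all windows that hold them, were the AP-1 site TGANTCA (6.75%), the ETS site CCGGAAGT (2.88%), the Capicua sites TGAATGAA (1.08%) and TGAATGGA (1.01%), the EGR site GCGTGGGCG (0.536%) and the NF-kB site (0.14%). The remaining ones were the partial CRE TGACG (17.8%), which is also part of the full CRE, TATAAA (12.4%), the E-box CACGTG (6.02%), ACGTG (16.6%), which is part of that E-box, the interferon-stimulated response element (2.98%) and TTCNNNGAA (7.02%). Beside the motif in capitals, the printed Dusp1 window held the E-box (-126 to -121), with ACGTG on both strands within it. It also held a partial CRE outside the full one (-191 to -187). The printed Dusp5 window held ACGTG (-57 to -53) and a partial CRE (-55 to -51) as well. The printed Dusp6 and Spry1 windows held a match to none of these 14 motifs. Neither a match nor its lack says anything about the binding of any factor.

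Calls of both signs were found among the components and among the feedback genes, and whether the 2 sets of genes differed in this was not tested. The feedback genes Dusp5 and Dusp6 and the components Nras and Pik3cd were higher in the IP+LC tumors, and the feedback genes Dusp1 and Spry1 and the components Mapk3 and Egfr were lower. Of the 45 members with enough UMIs for edgeR's quasi-likelihood test, 4 were higher and 4 were lower at an adjusted p below 0.1, the limit the study used. Over all 11240 tested genes 36.4% were called, 16.8% as higher and 19.6% as lower, so the members' 8 calls of 45 made up a smaller share than that of all genes. Among the components 2 of 39 tested genes were higher and 2 were lower, and among the feedback genes 2 of 6 were higher and 2 were lower. Mlst8 and Dusp4 had too few UMIs for the test.

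The sizes of the changes were small for most members. The median log2 fold change (IP+LC over LC) was 0.11 for the components and 0.33 for the tested feedback genes, beside 0.02 for all tested genes. Without LC replicate 1 these medians were 0.10 for the components and 0.04 for the feedback genes, and after thinning to the smallest library they were -0.037 and 0.70. For the components it ran from -0.99 to 1.09, and for the feedback genes from -1.62 to 1.35. With 6 feedback genes that move in opposite directions, their median lies between the groups of higher and lower genes and describes neither. The summed level of the 40 components was 2199, 2392 and 2293 CPM in LC replicates 1, 2 and 3 and 2491, 2421 and 2421 CPM in the IP+LC tumors. Of this, the 26 kinases made up 1577, 1743 and 1620 CPM in the LC and 1599.5, 1565 and 1605 CPM in the IP+LC tumors, so these groups overlapped. The 14 other components made up 622, 649 and 673 CPM in the LC and 891, 856 and 815 CPM in the IP+LC tumors, without overlap, and Nras alone rose from a mean of 147 to 317 CPM. That of the 7 feedback genes was 248, 456 and 464 CPM in the LC tumors and 378, 401 and 406 CPM in the IP+LC tumors, so the IP+LC values lay within the LC range. This overlap rests on LC replicate 1, since all 3 IP+LC values lay below those of LC replicates 2 and 3.

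**Figure D1:**
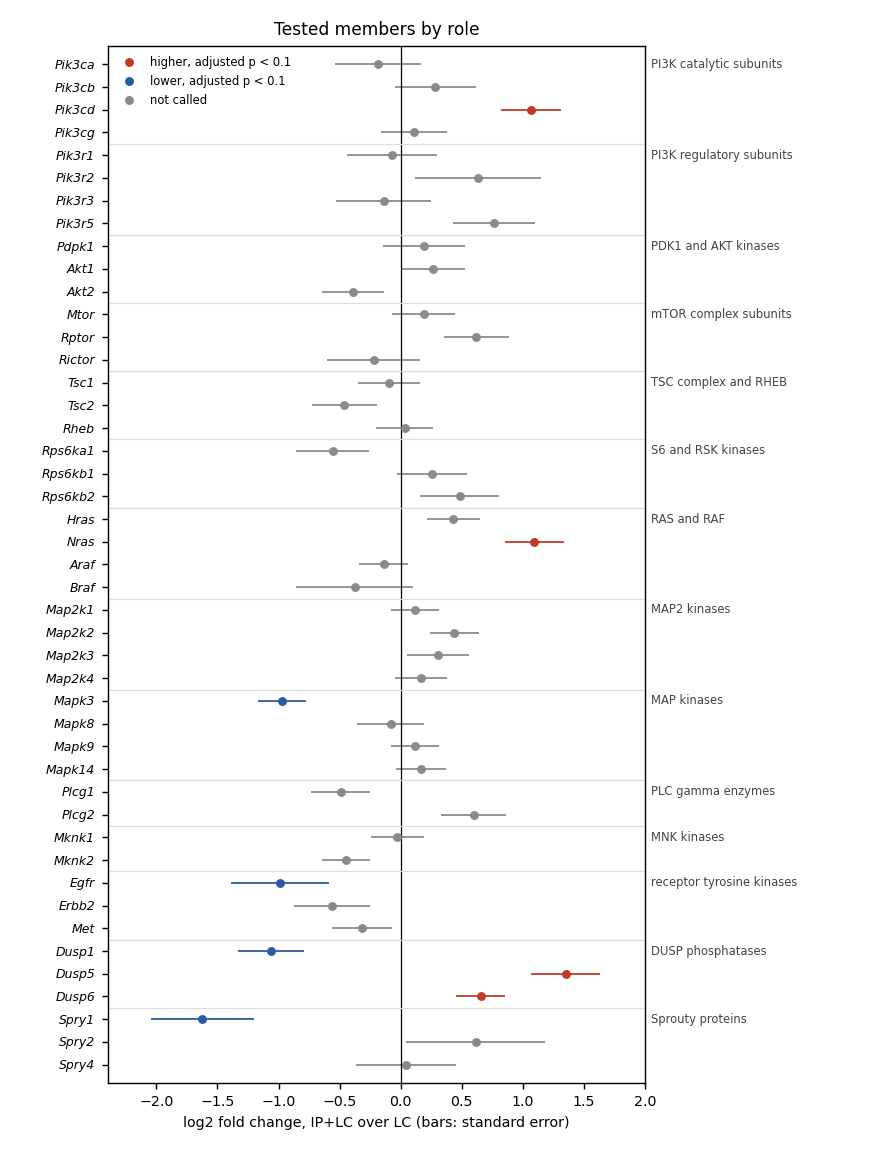
Log2 fold change (IP+LC over LC, horizontal axis) of the 45 tested members, ordered by role, with bars for the standard error of the fit. Red and blue points mark the 4 members that were higher and the 4 that were lower at an adjusted p below 0.1 in edgeR's test, and the other 37 points lie between -0.56 and 0.76.

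Pik3cd encodes the p110 delta catalytic subunit of PI3K, which is enriched in leukocytes (ENSMUSG00000039936, chromosome 4 of GRCm38 from 149649168 to 149702571). It was at 24.1, 15.7 and 19.5 CPM in LC replicates 1, 2 and 3 and at 34.1, 43.8 and 42.1 CPM in the IP+LC tumors. Every IP+LC tumor lay above every LC tumor. The means were 19.8 ± 4.23 and 40.0 ± 5.19 CPM (SD, n = 3 each), a log2 fold change of 1.06 with a standard error of 0.24 (adjusted p = 0.0133 from edgeR across all genes). The call was lost when all libraries were thinned to the depth of the smallest (0.62, adjusted p = 0.185). Of 6 pan-leukocyte markers, Laptm5 was called higher, none was lower, and their summed level was from 1177 to 1495 CPM in the LC tumors and from 1389 to 1879.9 CPM in the IP+LC tumors. The overlap of these sums comes from LC replicate 1 (1495 CPM), and LC replicates 2 and 3 (1177 and 1326 CPM) lay below every IP+LC tumor. Of 8 macrophage markers, Adgre1, C1qa and C1qc were higher and Lyz2 was lower, and their sum, most of it Lyz2, was from 13214 to 15718 CPM in the LC and from 7922 to 9600.1 CPM in the IP+LC tumors. The part of leukocyte content in the Pik3cd value was not tested. In bulk tissue, fewer or more cells of a type and less or more RNA per cell cannot be told apart.

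No difference was called for the remaining PI3K subunits. The catalytic subunits Pik3ca (p110 alpha) and Pik3cb (p110 beta), found in most cell types, had log2 fold changes of -0.19 and 0.28, and Pik3cg (p110 gamma), another leukocyte subunit, had 0.11. The regulatory subunits Pik3r1, Pik3r2 and Pik3r3 had log2 fold changes of -0.07, 0.63 and -0.14. Pik3r5, the p101 partner of p110 gamma, was at 10.3, 14.9 and 6.78 CPM in the LC tumors and at 18.9, 16.9 and 19.6 CPM in the IP+LC tumors. Its groups did not overlap, but the test did not call it (log2 fold change 0.76, standard error 0.34, adjusted p = 0.124 from edgeR).

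For the kinases PDK1 and AKT, which act directly after PI3K, the log2 fold changes were 0.19 for Pdpk1, 0.27 for Akt1 and -0.39 for Akt2, and none was called. An annotated copy, Akt2-ps, matches 31.8% of the Akt2 transcript closely, so the Akt2 count is uncertain. The counts of Rps6kb2, Mlst8 and Pik3r3 are uncertain too, as their transcripts match stretches of Ptprcap (26.8%), Bricd5 (26.1%) and Gm49337 (24.7%) closely. Exons of these 3 genes also overlap other genes at the same place in the genome. The overlap is with the opposite strand for Rps6kb2 (23.7%) and Mlst8 (22.5%) and with the same strand for Pik3r3 (24.3%). The kinase subunit Mtor was at 21.1 ± 1.40 CPM in the LC and at 23.7 ± 4.87 CPM in the IP+LC tumors (SD, n = 3 each). Its difference of 0.19 on the log2 scale was smaller than its standard error of 0.26 (adjusted p = 0.624 from edgeR). Rictor, which defines mTOR complex 2, had a log2 fold change of -0.22.

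Rptor, which defines mTOR complex 1, was at 20.7, 16.5 and 13.6 CPM in the LC tumors and at 29.0, 23.3 and 23.2 CPM in the IP+LC tumors. All IP+LC values lay above the LC values, and the change of 0.62 on the log2 scale was not called (adjusted p = 0.117 from edgeR). Mlst8, a subunit of both mTOR complexes, was at 3.44, 5.48 and 5.93 CPM in the LC tumors and at 7.25, 6.42 and 8.71 CPM in the IP+LC tumors, which rests on 2 to 12 UMIs per library and was not tested. Of the regulators of mTOR complex 1, Tsc1 and Tsc2, the inhibitory complex, had log2 fold changes of -0.10 and -0.46 and Rheb, its target, had 0.03. For the S6 kinases Rps6kb1 and Rps6kb2 they were 0.26 and 0.48, and for the ERK-activated kinase Rps6ka1 it was -0.56. None of these 6 genes was called with all 6 tumors at full depth. Rps6ka1 was called without LC replicate 3 (log2 fold change -0.87, adjusted p = 0.0336 from edgeR), and Tsc2 was called after thinning to the smallest library (-1.15, adjusted p = 0.0464).

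Nras, a RAS GTPase (ENSMUSG00000027852, chromosome 3 from 103058285 to 103067914), was at 107, 187 and 147 CPM in the LC tumors and at 343, 313 and 293 CPM in the IP+LC tumors. The lowest IP+LC tumor was well above the highest LC tumor. From 147 ± 40.2 to 317 ± 25 CPM (SD, n = 3 each), Nras rose by 1.09 on the log2 scale, with a standard error of 0.24 (adjusted p = 0.0110 from edgeR). It was called in all 15 alternatives, with log2 fold changes from 0.91 to 1.30. Proliferation markers moved in the same direction, with 5 of 6 called higher. Their summed level was 104 to 517 CPM in the LC tumors and 889 to 1051 CPM in the IP+LC tumors. The highest LC value of that sum was in LC replicate 1, which had the lowest Nras level, on 62 UMIs. The part of proliferation in the Nras value was not tested.

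Hras was at 87.8, 60.3 and 76.3 CPM in the LC tumors and at 114, 92.8 and 92.9 CPM in the IP+LC tumors. Its groups did not overlap, and a difference of 0.43 on the log2 scale was not called (adjusted p = 0.172 from edgeR). The RAF kinases Araf and Braf had log2 fold changes of -0.14 and -0.38. For Braf the LC tumors were at 17.2, 59.5 and 117 CPM, a wider range than that of the IP+LC tumors, which were at 59.5, 48.4 and 47.9 CPM.

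Mapk3 encodes ERK1 (ENSMUSG00000063065, chromosome 7 from 126759601 to 126765819). It was at 249.7, 215 and 209 CPM in the LC tumors and at 104, 109 and 130.0 CPM in the IP+LC tumors. All LC values lay above all IP+LC values, and LC replicate 1 was close to the other LC tumors. The mean fell from 225 ± 21.8 to 114 ± 13.9 CPM (SD, n = 3 each), a log2 fold change of -0.97 with a standard error of 0.20 (adjusted p = 0.00803 from edgeR). The call held in all 15 alternatives, with log2 fold changes from -1.05 to -0.82.

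The other MAP kinases, the stress-activated Mapk8 (JNK1), Mapk9 (JNK2) and Mapk14 (p38 alpha), had log2 fold changes of -0.08, 0.12 and 0.17 and were not called. Among the kinases that activate MAP kinases, Map2k1 (MEK1), Map2k3 and Map2k4 had log2 fold changes of 0.12, 0.31 and 0.16. Map2k2 (MEK2) was at 139, 157 and 119 CPM in the LC tumors and at 204, 183 and 177 CPM in the IP+LC tumors, without overlap. Its difference was not called (log2 fold change 0.44, adjusted p = 0.133 from edgeR).

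Egfr encodes the receptor of epidermal growth factor (ENSMUSG00000020122, chromosome 11 from 16752203 to 16918158). It was at 10.3, 25.1 and 22 CPM in the LC tumors and at 14.5, 6.42 and 10.2 CPM in the IP+LC tumors. LC replicate 1 lay within the IP+LC range, so the groups overlapped. The difference just passed the limit (log2 fold change -0.99, standard error 0.40, adjusted p = 0.0983 from edgeR). Without LC replicate 1 the groups did not overlap, with a log2 difference of -1.20 (edgeR's adjusted p = 0.00861). The difference missed the limit in 10 of 14 alternatives, over which the adjusted p ran from 0.00506 to 0.359, and each library held between 6 and 32 UMIs of the gene. Erbb2 and Met, the other receptors, had log2 fold changes of -0.56 and -0.32 and were not called. Epithelial markers were lower in the same tumors. Of 6 pan-epithelial markers 4 were called lower, with summed levels of 945 to 1717 CPM in the LC and 714 to 907 CPM in the IP+LC tumors, and their part in the receptor values was not tested.

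Plcg1 and Plcg2 encode phospholipases C gamma, which are activated by receptor and immune tyrosine kinases. Plcg1, the form found in most cells, was at 27.6, 30.6 and 35.6 CPM in the LC tumors and at 17.4, 25.7 and 24.0 CPM in the IP+LC tumors. These groups did not overlap, with the IP+LC tumors lower, but the difference was not called (log2 fold change -0.49, adjusted p = 0.166 from edgeR). Plcg2, a form of blood cells, had overlapping groups and was not called (log2 fold change 0.60, adjusted p = 0.129 from edgeR). Mknk2, one of the kinases that phosphorylate the translation factor eIF4E after MAP kinase activation, was at 131, 175 and 139.8 CPM in the LC tumors and at 104, 109.7 and 115 CPM in the IP+LC tumors. It was lower in every IP+LC tumor without being called (log2 fold change -0.45, adjusted p = 0.125 from edgeR), and Mknk1 had a log2 fold change of -0.03.

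**Figure D2:**
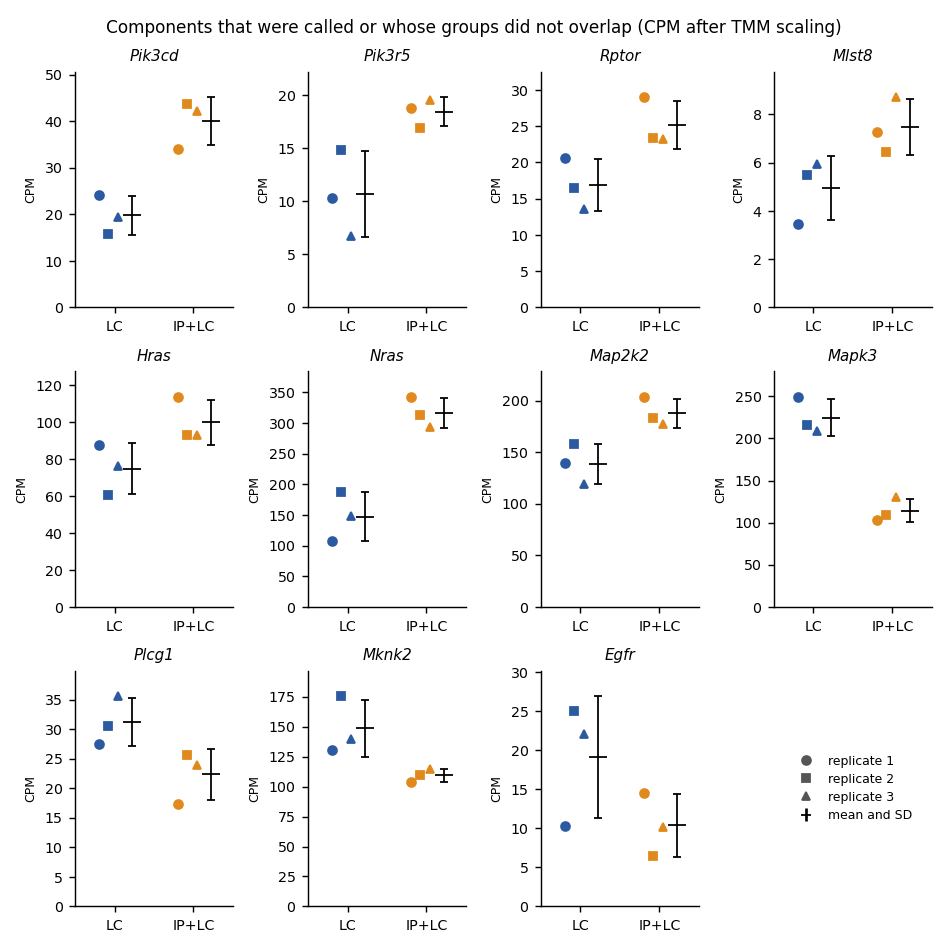
Level (CPM, vertical axes starting at 0) of the components that were called or whose groups did not overlap, in each LC (blue) and IP+LC (orange) tumor, with the mean and SD of each group in black. Pik3cd, Nras, Mapk3 and Egfr passed the test, and in Egfr the point of LC replicate 1 (10.3 CPM) lies among those of the IP+LC tumors.

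Without overlap between the groups, 8 of the 45 tested members were higher and 5 were lower in the IP+LC tumors. Over all tested genes 43.1% had no overlap, 21.6% as higher and 21.5% as lower, which again is a larger share than among the members. The higher ones were Pik3cd, Pik3r5, Rptor, Hras, Nras, Map2k2, Dusp5 and Dusp6, and the lower ones were Mapk3, Plcg1, Mknk2, Dusp1 and Spry1.

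Dusp1 encodes an inducible nuclear phosphatase of p38, JNK and ERK (ENSMUSG00000024190, chromosome 17 from 26505590 to 26562128). It was at 108, 180.2 and 186 CPM in the LC tumors and at 62.4, 69.5 and 97.3 CPM in the IP+LC tumors. LC replicate 1 was the lowest LC tumor and still lay above the IP+LC tumors. The mean fell from 158 ± 43.0 to 76.4 ± 18.5 CPM (SD, n = 3 each), a log2 fold change of -1.06 with a standard error of 0.27 (adjusted p = 0.0204 from edgeR). It was not called without IP+LC replicate 1 (adjusted p = 0.105) or IP+LC replicate 2 (0.110). Dusp1 is also an immediate-early gene, and of the 8 tested genes of an immediate-early list, which does not hold Dusp1, Egr1 and Nr4a1 were lower and none was higher. The summed level of that list was from 689 to 765 CPM in the LC and from 672 to 798 CPM in the IP+LC tumors.

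Dusp5 encodes a nuclear phosphatase specific for ERK (ENSMUSG00000034765, chromosome 19 from 53529109 to 53542431). The LC tumors had 15.5, 8.62 and 12.7 CPM of Dusp5 and the IP+LC tumors had 28.3, 33.3 and 28.3 CPM. All IP+LC tumors were above all LC tumors, in which Dusp5 rested on 9 to 15 UMIs per library. The change from 12.3 ± 3.46 to 30.0 ± 2.87 CPM (SD, n = 3 each) was 1.35 on the log2 scale (standard error 0.28, adjusted p = 0.00920 from edgeR). It was called in each of the 14 alternatives that tested it. A gene on the opposite strand overlaps 22.1% of the Dusp5 exons, and the use of the strand in the counting is not stated in the sources, so reads of the 2 genes may not be separated.

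Dusp6 encodes the cytoplasmic ERK phosphatase MKP-3 (ENSMUSG00000019960, chromosome 10 from 99263231 to 99267489). Its level was 75.8, 103 and 95.8 CPM in the LC tumors and 145, 158 and 132 CPM in the IP+LC tumors, again with all IP+LC tumors higher. From 91.4 ± 14 to 145 ± 12.7 CPM (SD, n = 3 each), Dusp6 rose by 0.65 on the log2 scale (standard error 0.20, adjusted p = 0.0407 from edgeR). It was not called without IP+LC replicate 1 (adjusted p = 0.114) or IP+LC replicate 2 (0.151). Dusp4, a nuclear phosphatase, had 3, 2 and 0 UMIs in the LC tumors and 5, 14 and 3 UMIs in the IP+LC tumors. No LC tumor was above the floor of 3 UMIs and IP+LC replicate 2 was highest, but the counts were too few for the main test.

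Spry1 encodes a Sprouty inhibitor of receptor signaling (ENSMUSG00000037211, chromosome 3 from 37639947 to 37644598). It was at 29.3, 57.2 and 49.2 CPM in the LC tumors and at 19.6, 5.84 and 21.1 CPM in the IP+LC tumors. The groups did not overlap, and IP+LC replicate 2 was the lowest with 10 UMIs. From 45.2 ± 14.4 to 15.5 ± 8.39 CPM (SD, n = 3 each), the log2 fold change was -1.62 with a standard error of 0.42 (adjusted p = 0.0219 from edgeR), the strongest decrease among the tested members. Without LC replicate 2 it missed the limit (-1.42, adjusted p = 0.102). A gene on the other strand overlaps 24.4% of the Spry1 exons.

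The remaining Sprouty genes were not called. Spry2 was at 6.89, 97.1 and 107 CPM in the LC tumors and at 104, 119 and 116 CPM in the IP+LC tumors. LC replicate 1, with 4 UMIs of Spry2, was far below all other tumors, which lay within a narrow range. The log2 fold change was 0.62 with all tumors (standard error 0.57, adjusted p = 0.453 from edgeR) and 0.16 without LC replicate 1 (adjusted p = 0.386), and the gene was called when no filter on low counts was used (0.73, adjusted p = 0.0547). Spry4, at 6.89, 8.62 and 13.6 CPM in the LC tumors and 15.2, 7.59 and 8.71 CPM in the IP+LC tumors, had overlapping groups and a log2 fold change of 0.04.

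**Figure D3:**
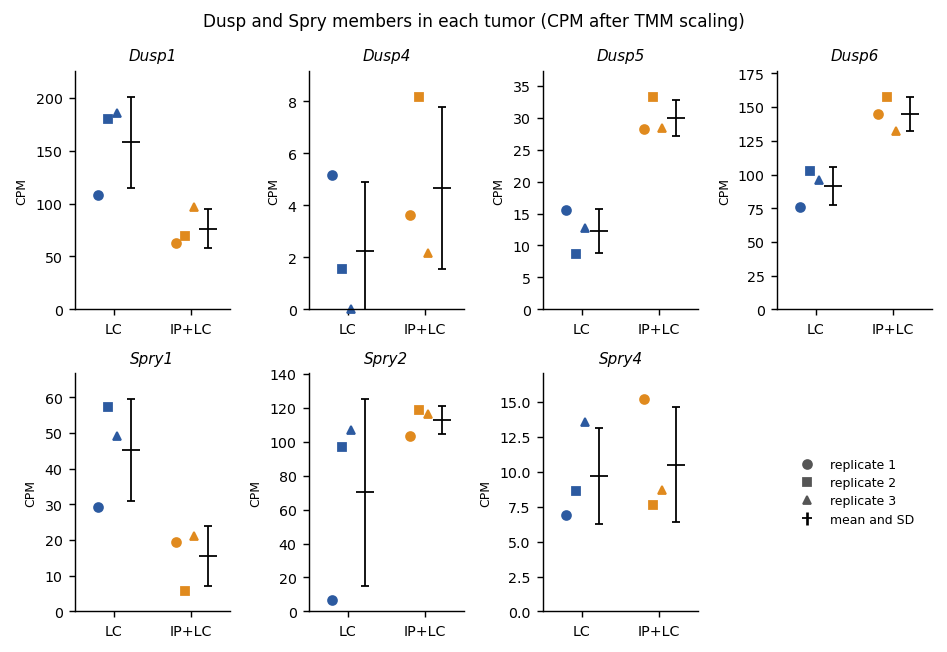
Level (CPM, vertical axes starting at 0) of the 7 Dusp and Spry genes in each LC (blue) and IP+LC (orange) tumor, with the mean and SD of each group in black. Dusp1 and Spry1 lay lower and Dusp5 and Dusp6 higher in every IP+LC tumor, and the Spry2 point at 6.89 CPM is LC replicate 1.

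Markers of normal lung cells were lower in the tumors in which Mapk3, Egfr, Dusp1 and Spry1 were lower. All 8 endothelial markers were called lower, with summed levels of 1293 to 2131 CPM in the LC and 442 to 542 CPM in the IP+LC tumors. So were all 7 type 2 alveolar markers (35988 to 45069.8 CPM against 6563 to 11819 CPM), all 6 airway markers (47924 to 56302 CPM against 3277 to 7136 CPM), all 5 smooth muscle markers (728 to 1147 CPM against 207 to 291 CPM) and 5 of 6 type 1 alveolar markers (2857 to 5012 CPM against 938 to 1308 CPM). None of the marker genes was at 0 in all 6 tumors, and the summed LC and IP+LC levels of these 5 lists did not overlap. Of the fibroblast markers 2 of 6 were higher and 3 were lower, and 3 of 6 neutrophil, 4 of 5 B cell and 1 of 6 T cell markers were lower. The part of lung cell content in the lower levels of these 4 genes was not tested.

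The number of calls rested strongly on LC replicate 1. It had the lowest level of the 6 tumors for 13 members, among them Pik3ca (46.5 CPM against 138 and 134 CPM in the other LC tumors), Braf and Spry2, and the highest for 8, while LC replicate 3 had the lowest level for 14. Its mitochondrial genes took 3.84% of the UMIs, against 9.38% and 12% in the other LC tumors and 4.40% to 8.32% in the IP+LC tumors. When it was left out, 25 of 46 tested members were called, 12 as higher and 13 as lower. All 8 members called with the 6 tumors remained called in the same direction. Over all 11748 genes tested without this tumor 57.0% were called, 28.3% as higher and 28.7% as lower, so the members' share was close to that of all genes.

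The 17 members that were called without LC replicate 1 but not with all 6 tumors were all components. All of them except Pik3r1, Rictor and Braf were also called in at least 1 other alternative. For Pik3ca, Pik3r2, Akt1, Akt2, Map2k3, Plcg1, Erbb2 and Met the only other one was limma voom with quality weights. That fit can weight tumors unequally, so it is not independent of leaving a tumor out. Those that were higher in the IP+LC tumors were Pik3r2 (log2 fold change 1.33), Plcg2 (0.83), Pik3r5 (0.75), Rptor (0.75), Map2k3 (0.58), Akt1 (0.56), Hras (0.56) and Map2k2 (0.45). Those that were lower were Braf (-0.75), Erbb2 (-0.66), Plcg1 (-0.54), Akt2 (-0.54), Mknk2 (-0.52), Rictor (-0.52), Pik3ca (-0.51), Met (-0.49) and Pik3r1 (-0.38). In this comparison 10 components were higher and 11 were lower, so the components too moved in both directions. The feedback genes kept 2 higher and 2 lower calls, with log2 fold changes of 1.51 for Dusp5, 0.56 for Dusp6, -1.25 for Dusp1 and -1.82 for Spry1. Only 2 LC tumors remained, and whether LC replicate 1 or the other 2 are closer to a typical LC tumor was not tested.

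**Figure D4:**
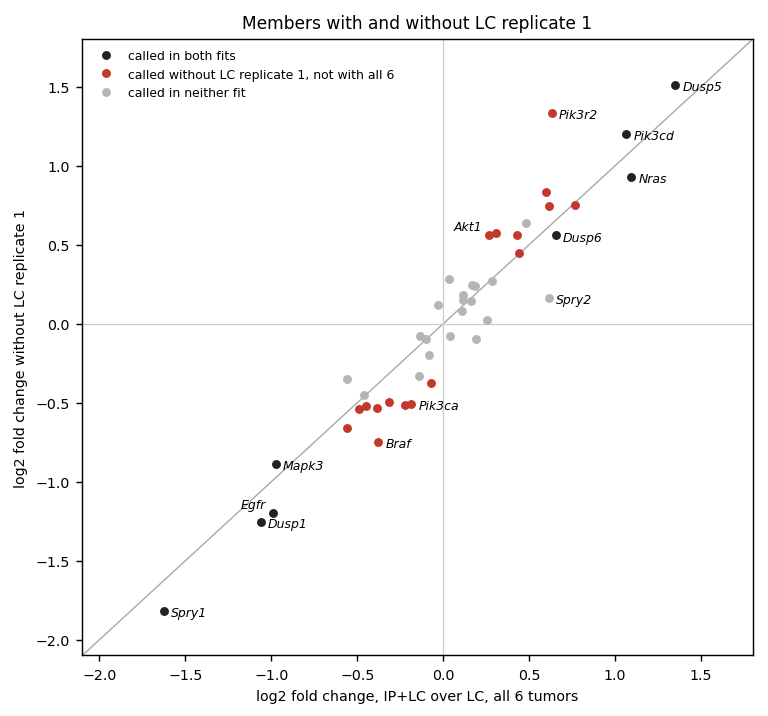
Log2 fold change of each member (IP+LC over LC) with all 6 tumors (horizontal axis) and without LC replicate 1 (vertical axis), with a line of equal values. The 8 members called in both fits (black) lie near the line from Spry1 at the lower left to Dusp5 at the upper right, and the 17 called without LC replicate 1 but not with all 6 tumors (red) lie on both sides of 0, with Pik3r2 farthest from the line.

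Other genes of the same pathways included calls in both directions, and the share called among the PI3K-mTOR and RAS-MAPK genes was below the 36.4% of all genes. Of 26 other tested PI3K-mTOR genes 2 were higher and 4 were lower, with a median log2 fold change of -0.11. The stress-induced inhibitor of mTOR complex 1 Sesn2 was higher (log2 fold change 1.61), as was the lipid phosphatase Inpp5d of blood cells (1.06), whereas Sesn1 (-1.20), Sesn3 (-0.73) and the AKT-related kinase Sgk1 (-0.97) were lower. Of 38 other tested RAS-MAPK genes 3 were higher and 4 were lower, with a median of 0.12. The adaptors Shc1 (1.06) and Grb2 (0.59), which link receptors to RAS, were higher, and the receptors Fgfr2 (-2.36) and Kit (-1.65) and the RAS activator Rasgrp3 (-1.18) were lower. Fgfr2 was at 55.1, 91.7 and 92.4 CPM in the LC tumors and at 11.6, 14.6 and 21.1 CPM in the IP+LC tumors, without overlap.

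Among 13 other tested feedback genes 4 were higher and 2 were lower, with a median of 0.09, so the share called was above the 36.4% of all genes. This list was chosen with earlier results of these data known, so that share does not test for an excess. The phosphatases Dusp2 (1.38) and Dusp10 (1.23) and the RAS-MAPK inhibitor Spred1 (0.67) were higher, and Dusp14 (-1.50) and Il17rd (-1.58), an inhibitor of FGF receptor signaling, were lower. Spred1 was at 63.7, 65.0 and 62.7 CPM in the LC tumors and at 102, 102 and 99.5 CPM in the IP+LC tumors, a narrow range in both groups.

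Of 10 transcripts that ERK activity is known to induce, 5 were higher and 2 were lower, with a median log2 fold change of 0.78. This share was also above that of all genes, but the list was chosen with earlier results of these data known. It therefore does not test for an excess either. Ccnd1, the gene of cyclin D1, was at 31.0, 49.4 and 38.1 CPM in the LC tumors and at 309, 302 and 253 CPM in the IP+LC tumors. It rose by 2.84 on the log2 scale (standard error 0.24, adjusted p = 0.000565 from edgeR). The transcription factor genes Myc (2.41) and Fosl1 (3.34) and the gene Phlda1 (0.92) were also higher, without overlap between the groups, whereas the immediate-early factor Egr1 (-0.85) was lower. Etv5 (-1.15) was also lower and Etv4 (2.48) higher, both with overlapping groups. Etv4 had 0 UMIs in LC replicates 2 and 3. Fosl1 was at 17.2, 3.13 and 2.54 CPM in the LC tumors, with the highest value in LC replicate 1, and at 68.2, 77.0 and 35.6 CPM in the IP+LC tumors. The cells that carried these transcripts cannot be told from whole tumor tissue.

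**Figure D5:**
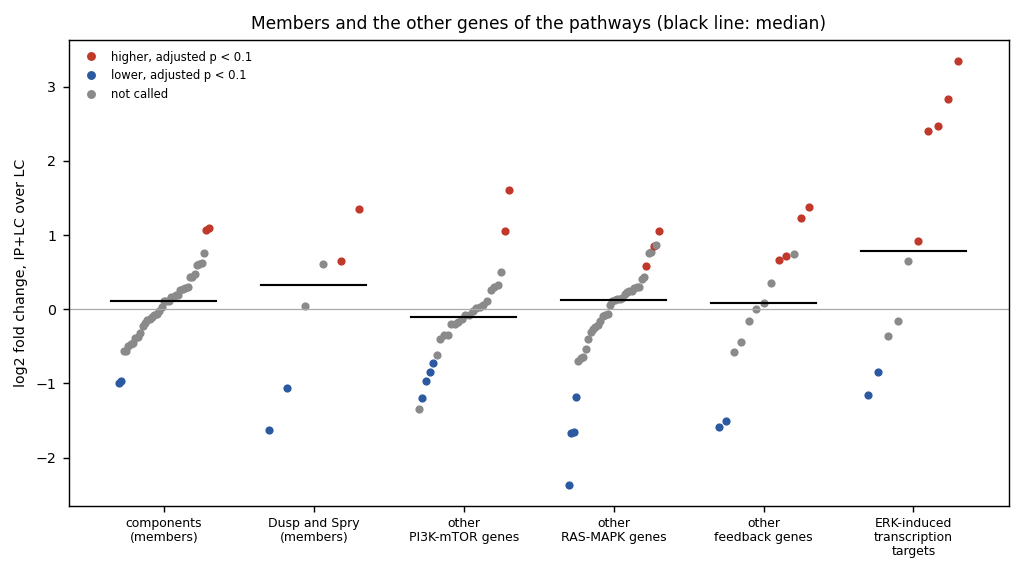
Log2 fold change (IP+LC over LC, vertical axis) of each tested gene, one point per gene sorted within its list, for the components, the Dusp and Spry members and the other genes of the pathways, with the median as a black line. Called genes lie on both sides of 0 in each of the 6 lists, and the ERK-induced targets have the highest median, 0.78.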

How the data were processed

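RNA of 3 LC and 3 IP+LC tumors was counted. Per the labels and methods, the authors took 180 ng of total RNA per library, extracted UMIs with UMI-tools 1.1.1, trimmed reads with Trim Galore 0.6.7, used HISAT2 2.2.1 for alignment to GRCm38 and featureCounts 2.0.1 for gene assignment. The deposited values are UMI counts per gene, without normalization. The annotation release and the strand setting are not given in the sources used here.

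From these counts, genes were kept by filterByExpr (minimum count 10, minimum total 15), scaled by TMM (factors from 0.905 to 1.07) and tested with the quasi-likelihood test of edgeR 4.0.16 in R 4.3.3, IP+LC against LC without covariate, with Benjamini-Hochberg adjustment over all 11240 tested genes. Gene positions, overlaps and near-identical copies (at least 81 nt at 95% identity) came from GENCODE M21.

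Alternatives were DESeq2 size factors, upper quartile scaling, library size only, no filter, at least 10 UMIs in every library, DESeq2 1.42.0, limma 3.58.1 voom with quality weights, thinning to 592733 UMIs (seed 1), a replicate block, a limit of 0.05 and each tumor left out. The 47 members and all gene and marker lists were chosen with earlier results of these data known. Values per tumor are given for called members, feedback genes and members without overlap, and in each other list up to 5 called genes with the smallest adjusted p are named. For the ERK-induced transcripts all called genes are named. UMIs limit PCR duplicates, and floors cover counting error only.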

Additional observations from a re-analysis of the deposited data

How the results depend on the processing

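With 4 members called higher and 4 lower as reported, 9 were higher with library size only, which also moved the median log2 fold change of all genes from 0.02 to 0.18, and limma voom with quality weights called 11 higher and 10 lower. Leaving out 1 tumor at a time gave 3 to 12 higher and 2 to 13 lower members, with both upper ends without LC replicate 1. The count over all genes, 4088 as reported, was 6233 with voom, 2352 after thinning and 2265 (without IP+LC replicate 2) to 6691 (without LC replicate 1) with a tumor left out. The feedback median was -1.07 under the filter of 10 UMIs in every library, because only Dusp1, Dusp6 and Spry1 then remained. It was 0.33 as reported, 0.73 without a filter, 0.71 with DESeq2, 0.70 after thinning and 0.04 without LC replicate 1. The component median, 0.11 as reported, was 0.27 with library size only, 0.22 without a filter, 0.17 with DESeq2, -0.037 after thinning and from 0.051 (without IP+LC replicate 2) to 0.13 (without IP+LC replicate 1) with a tumor left out.

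Deviations from the group means of same-numbered LC and IP+LC tumors correlated at 0.02, -0.11 and 0.10. Those of tumors with different numbers correlated from -0.13 to 0.12. No pairing by replicate number was seen, but with 3 tumors per group this check cannot exclude one. With a replicate block, 4 members were higher, 3 were lower (Egfr was lost, adjusted p = 0.189) and 3410 genes were called. Nras, Mapk3 and Dusp5 kept their calls in every alternative that tested them.

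None of the 8 called members changed direction in any alternative. Some members without a call changed sign. With library size only these were Pik3r1 (0.11), Pik3r3 (0.022), Tsc1 (0.066), Araf (0.019), Mapk8 (0.082) and Mknk1 (0.13), and without a filter Pik3r1 (0.051), Tsc1 (0.017), Mapk8 (0.038) and Mknk1 (0.083). With DESeq2 they were Pik3r1 (0.012) and Mknk1 (0.018), with voom Pdpk1 (-0.027), Mknk1 (0.082) and Spry4 (-0.029), with upper quartile scaling Rheb (-0.039) and Spry4 (-0.017), and with the replicate block Pik3r1 (0.082). After thinning they were Pik3cg (-0.13), Pik3r2 (-0.039), Pdpk1 (-0.019), Rheb (-0.0099), Mapk9 (-0.12), Mapk14 (-0.11) and Mknk1 (0.058). With each tumor left out in turn, the ranges that crossed 0 were -0.51 to 0.033 for Pik3ca, -0.0085 to 0.54 for Pik3cb, -0.0074 to 0.26 for Pik3cg, -0.38 to 0.32 for Pik3r1, -0.33 to 0.027 for Pik3r3, -0.094 to 0.38 for Pdpk1, -0.52 to 0.24 for Rictor, -0.24 to 0.031 for Tsc1, -0.12 to 0.28 for Rheb, -0.75 to 0.29 for Braf, -0.29 to 0.11 for Mapk8, -0.12 to 0.12 for Mknk1 and -0.28 to 0.36 for Spry4. The cause of these changes was not tested. Depth limits Dusp4 and Mlst8, and LC replicate 1 has the fewest UMIs.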
